A study of Rattus norvegicus with 6 samples.

Results

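The miR-30 family and its relative miR-384 were described in small RNA libraries of rat brain, as the 9 rows rno-miR-30a-5p, rno-miR-30b-5p, rno-miR-30c-5p, rno-miR-30d-5p, rno-miR-30e-5p, rno-miR-30a-3p, rno-miR-30e-3p, rno-miR-384-5p and rno-miR-384-3p (written below without rno) of the 775 miRNAs in the deposited count table. The rule lists these rows by name and sets no threshold on a measured value. Earlier results of these data were known when the rows were chosen. The rule leaves out miR-30b-3p, miR-30c-1-3p, miR-30c-2-3p and miR-30d-3p, which are read below as other arms. The animals were male Sprague–Dawley rats, 7 weeks old when purchased, and both groups carried 2-vessel occlusion (2VO), a ligation of both common carotid arteries that models vascular dementia by lasting low blood flow. The 2VO group (3 libraries) received the vehicle, 0.5% CMC-Na at 5 mL/kg, and the tilianin-treated 2VO group (3 libraries) received tilianin, a flavonoid glycoside, at 40 mg/kg daily by gastric tube for 4 weeks. The comparison asks which miRNAs differ with tilianin in brains that all have the occlusion. No source says that each library is 1 rat, so p-values measure the spread between libraries, which may be technical. The methods of the paper name the sequenced tissue as brain, whereas its figure caption on these miRNAs names cortical tissue. In whole tissue, fewer cells of a type and less RNA per cell cannot be told apart.

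A miRNA hairpin is cut into a 5p and a 3p strand. One of them, the guide, is usually loaded into an Argonaute protein, which pairs it with target mRNAs chiefly through the seed, bases 2 to 8 counted from the 5′ end. The 5p strands of miR-30 are guides found in most tissues, and miR-30a is known for limiting autophagy through Becn1 and for repressing Bdnf in neurons. miR-384 is a brain-enriched relative whose 5p strand has been studied in synaptic plasticity. Strands that share a seed are expected to share many targets.

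The RefSeq table (GRCr8) held mature sequences for 6 of the 9 members, and miR-30b-5p, miR-30d-5p and miR-30e-3p were not among them. The 4 strands below, all 5p, are shown because they carry one seed, given in capitals, and separate only after it.
miR-30a-5p: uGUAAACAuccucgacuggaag
miR-30c-5p: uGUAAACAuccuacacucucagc
miR-30e-5p: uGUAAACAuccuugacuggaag
miR-384-5p: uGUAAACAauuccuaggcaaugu

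Of the 689 listed miRNAs with a reference sequence, these 4 had the seed GUAAACA. miR-30a-5p, miR-30c-5p and miR-30e-5p shared their first 12 bases, whereas miR-384-5p shared 8 bases with each of them. The 3p strands are shown with their seeds in capitals, since the arm ratios below rest on them, and no other listed miRNA with a reference sequence had either seed.
miR-30a-3p: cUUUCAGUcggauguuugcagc
miR-384-3p: aUUCCUAGaaauuguucacaau

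In GRCr8, miR-30a-5p lies at chr9:33233946-33233967 and miR-30a-3p at chr9:33233987-33234008, both on the plus strand, in a hairpin that no other annotated gene spans. miR-30c-5p comes from both a chromosome 9 hairpin (Mir30c2, chr9:33253695-33253717, plus strand, inside the lncRNA LOC134480562 and the pseudogene Rbx1-ps1) and a chromosome 5 hairpin (Mir30c1, chr5:139634505-139634527, minus strand), so its count cannot be assigned to either. The chromosome 9 hairpins are 19670 bases apart. miR-30e-5p (chr5:139637504-139637525, minus strand) lies 2906 bases from Mir30c1, measured between hairpins, and both are inside Nfyc, which encodes a subunit of the CCAAT-binding factor NF-Y. miR-384-5p (chrX:74490939-74490961) and miR-384-3p (chrX:74490899-74490920) are on the minus strand of the X chromosome inside the lncRNA LOC103690870, which also holds Mir325 32542 bases away.

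Total counts per library were 7175872 to 13198776, and 454 miRNAs with at least 10 counts in all were tested. The brain label was checked against miRNA markers. The 6 neuronal markers were all detected and summed to 134754 to 167846 CPM (counts relative to library size, here after TMM scaling) in 5 libraries and to 89063 CPM in tilianin-treated replicate 2. Each of the 6 was lowest in that library, to unequal degrees. There miR-128-3p was at 3885 CPM (17574 to 28697 CPM elsewhere) and miR-132-3p at 85.2 CPM (395 to 699 CPM elsewhere). Of the 2 oligodendrocyte markers, miR-338-3p was at 17.5 to 49.4 CPM (141 to 450 counts), highest in the same library, and miR-219a-2-3p had 0 to 6 counts. Spearman correlations across the tested miRNAs were 0.936 to 0.957 between tilianin-treated replicate 2 and the rest, and 0.983 to 0.992 between the remaining libraries. In it the 3 Hox-cluster markers summed to 21658 CPM (at most 489 CPM elsewhere) and the 3 choroid plexus markers to 1074 CPM (at most 348 CPM elsewhere). Of the choroid plexus sum, miR-204-5p gave 1064 CPM. The marker miR-449a-5p went the other way, at 0.924 CPM there and up to 2.78 CPM elsewhere. The sums of the red blood cell, myeloid and muscle markers were also highest there, at 881, 746 and 492 CPM, against at most 406, 496 and 182 CPM elsewhere. Its CPM was the highest of the 6 libraries for 4 of the 9 members, the lowest for 1 and within the range of the others for 4. Among the highest, miR-30e-3p rests on 3 counts. The lowest, miR-384-5p at 0.308 CPM on 2 counts, was nearly equal to 2VO replicate 2 at 0.309 CPM. The share over all tested miRNAs is not given. The part of these markers in the members' values was not tested.

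The members lay between rank 10 and rank 439 of the 775 miRNAs by mean level. miR-30a-5p averaged 33717 CPM over the 6 libraries, and miR-30c-5p, at rank 15, averaged 13549 CPM. The next member, miR-30a-3p at 64.1 CPM, was 211-fold below miR-30c-5p. miR-30d-5p followed at 38.5 CPM and miR-30b-5p at 22.3 CPM. These first 5 members and miR-384-3p, at 3.39 CPM, kept their order without overlap, the lowest library of each lying above the highest library of the next. miR-384-3p also lay above miR-30e-5p in every library. The last 3, miR-30e-5p at 1.19 CPM, miR-384-5p at 0.521 CPM and miR-30e-3p at 0.257 CPM, were ordered in part. The lowest library of miR-30e-5p (0.732 CPM) lay above the highest of miR-30e-3p (0.462 CPM). The ranges of miR-30e-5p and miR-384-5p overlapped, although within every library miR-30e-5p had the higher count, and the ranges of miR-384-5p and miR-30e-3p overlapped as well. Mature miRNAs have nearly the same length, so no length correction was made, and whether different sequences were captured and counted with equal efficiency was not tested.

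**Figure D1:**
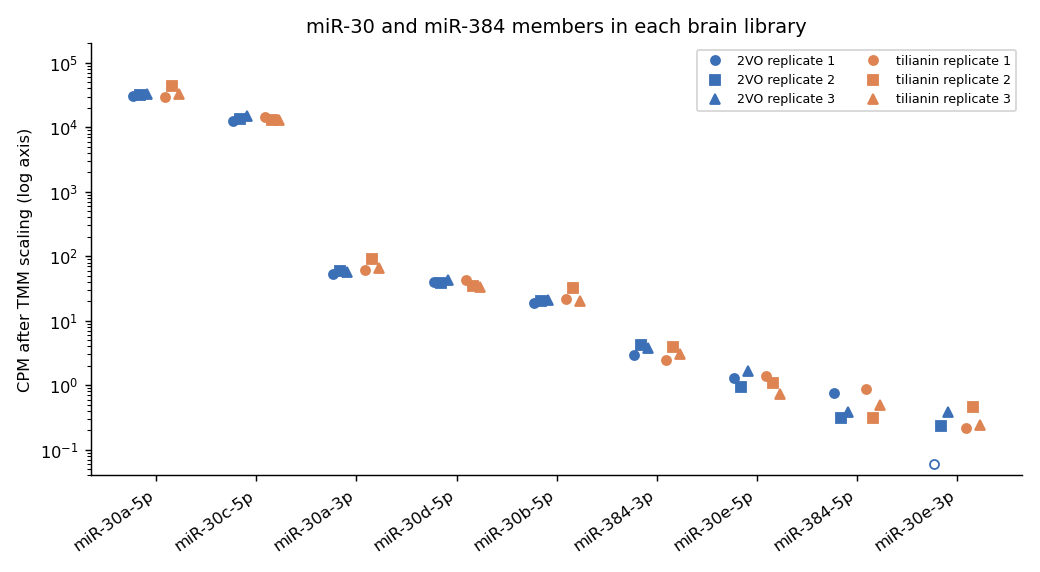
CPM after TMM scaling (log axis) of each member in each library, with blue for 2VO, orange for tilianin-treated 2VO and a symbol for each replicate number; the open symbol drawn at the bottom is miR-30e-3p in 2VO replicate 1, which had 0 counts. miR-30a-5p and miR-30c-5p lie at 12719 CPM or more in every library, and the other 7 members at 89.9 CPM or less.

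None of the 9 members was called between the tilianin-treated 2VO group and the 2VO group. In edgeR's quasi-likelihood test, 0 members passed the criterion of the study, an unadjusted p-value below 0.05 with an absolute log2 fold change above 1, which 5.73% of the 454 tested miRNAs passed (4.63% upregulated and 1.10% downregulated). At the unadjusted p-value alone 0 members passed, against 7.27% of all tested miRNAs, and the lowest p of a member in any alternative, DESeq2's Wald test and limma-voom included, was 0.0733. The adjusted p of the members was 0.746 to 0.929 by edgeR. All 9 passed the filter on low counts. In the 8 members with more than 3 counts in some library, 4 log2 fold changes were above 0 and 4 below, with a median of 0.06 against -0.03 over all tested miRNAs. The groups of 1 of the 9 members did not overlap in CPM, where 9.69% of all tested miRNAs did not (5.51% with the treated libraries higher).

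rno-miR-30a-5p was at 30114, 32065 and 33128 CPM in replicates 1, 2 and 3 of the 2VO group. In replicates 1, 2 and 3 of the tilianin-treated group it was at 29521, 44219 and 33257 CPM. The highest and the lowest of the 6 libraries were both treated, so that the 2VO libraries lay between them. The means were 31769 ± 1529 CPM and 35666 ± 7640 CPM (SD, n = 3 each), and the log2 fold change was 0.17 (standard error 0.189, 95% interval -0.28 to 0.61). Without tilianin-treated replicate 2 it was -0.000571 (standard error 0.159).

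rno-miR-30c-5p, the other abundant member, was at 12719, 13550 and 15084 CPM with vehicle, in the order of the replicates, and at 14369, 12796 and 12779 CPM with tilianin. Here tilianin-treated replicate 2 was not raised, and the 2VO group held both the highest and the lowest value. Its log2 fold change was -0.05 (standard error 0.160, 95% interval -0.43 to 0.33).

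rno-miR-30d-5p, on 224 to 500 counts, was at 40.1, 38.6 and 42.8 CPM with vehicle and at 42.1, 34.5 and 32.8 CPM with tilianin. Treated replicates 2 and 3 lay below all 2VO libraries and treated replicate 1 among them, and the log2 fold change was -0.15 (standard error 0.184, 95% interval -0.58 to 0.28). rno-miR-30b-5p, on 163 to 258 counts, was at 18.6, 19.9 and 21.1 CPM with vehicle and at 21.9, 32.2 and 20.3 CPM with tilianin. Treated replicate 3 lay within the 2VO range and the other treated libraries above it. The log2 fold change was 0.32 (standard error 0.237, 95% interval -0.24 to 0.88), and 0.11 without tilianin-treated replicate 2.

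The remaining 5p strands were near the limit of detection. rno-miR-30e-5p had 12, 12 and 13 counts in the 2VO libraries and 13, 7 and 6 counts in the treated libraries. After scaling these were 1.31, 0.926 and 1.68 CPM with vehicle and 1.41, 1.08 and 0.732 CPM with tilianin. Only treated replicate 3 then lay below the 2VO range. A count of 7 alone has an exact Poisson 95% interval of 2.81 to 14.4 counts. The log2 fold change was -0.25, with a 95% interval of -1.30 to 0.80. It was -0.0480 without 2VO replicate 3, -0.0375 without tilianin-treated replicate 3, -0.42 without 2VO replicate 2 and -0.49 without tilianin-treated replicate 1. rno-miR-384-5p had 7, 4 and 3 counts in the 2VO libraries and 8, 2 and 4 counts in the treated libraries, which interleave. Its log2 fold change was 0.24 (standard error 0.628, 95% interval -1.24 to 1.72), so a log2 change of 1 in either direction was not detectable at this depth.

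Among the 3p strands, rno-miR-30a-3p was at 53.2, 59.4 and 56.1 CPM with vehicle and at 60.9, 89.9 and 65.2 CPM with tilianin. It was the member whose groups did not overlap, all treated libraries being above all 2VO libraries. The means were 56.3 ± 3.13 CPM and 72.0 ± 15.7 CPM (SD, n = 3 each), and the log2 fold change was 0.36 (standard error 0.207, 95% interval -0.13 to 0.84), with an unadjusted p of 0.129 and an adjusted p of 0.746 by edgeR. The two-sided exact permutation test on log2(CPM + 1) gave p = 0.1, the smallest that 3 libraries against 3 allow. Without tilianin-treated replicate 2 the log2 fold change was 0.18. The sums of 3 marker lists separated the groups in the same direction as miR-30a-3p. The 3 red blood cell markers summed to 155 to 198 CPM with vehicle and 338 to 881 CPM with tilianin (nearly all from miR-486, with miR-451-5p at 0 to 4 counts). The 3 myeloid markers summed to 326 to 456 CPM and 457 to 746 CPM, and the 3 Hox-cluster markers to 89.8 to 149 CPM and 321 to 21658 CPM. Their part in the level of miR-30a-3p was not tested.

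rno-miR-384-3p was at 2.94, 4.24 and 3.75 CPM with vehicle and at 2.50, 3.85 and 3.05 CPM with tilianin, from 23 to 55 counts. The groups overlapped, and the log2 fold change was -0.23 (standard error 0.308, 95% interval -0.95 to 0.50). It was -0.0542 without 2VO replicate 2, -0.0612 without tilianin-treated replicate 1, -0.36 without 2VO replicate 1 and -0.39 without tilianin-treated replicate 2. miR-30e-3p had 0, 3 and 3 counts in the 2VO libraries and 2, 3 and 2 counts in the treated libraries. These counts do not exceed 3 in any library, the floor set for giving a fold change, so none is given.

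**Figure D2:**
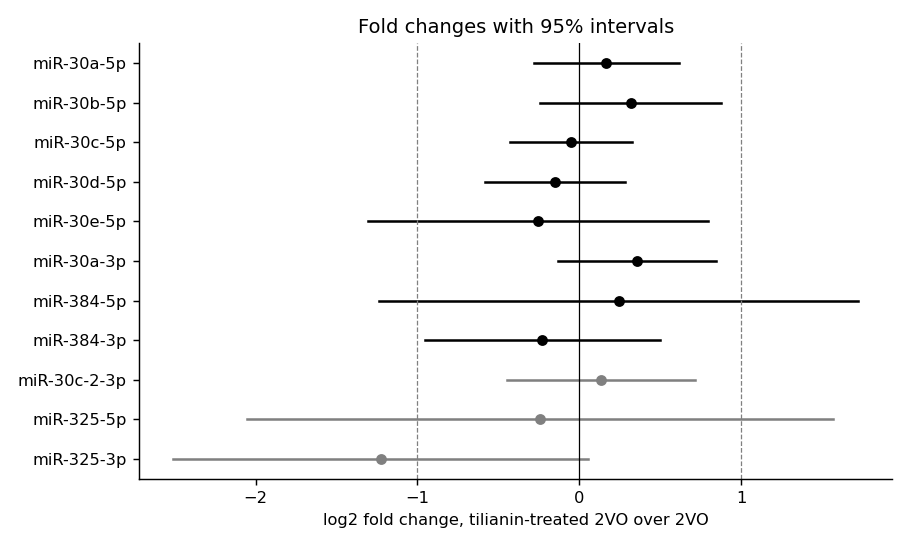
Log2 fold change (tilianin-treated 2VO over 2VO) with its approximate 95% interval for 8 members (black) and 3 other arms or neighbours (grey); dashed lines mark 1 and -1. The intervals of all 8 members include 0, and those of miR-30e-5p and miR-384-5p are the widest of the members.

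The other strands of these hairpins and the neighbouring miR-325 were read in the same fit. Of these 6 miRNAs, miR-30c-1-3p and miR-30d-3p had 0 counts in every library, which allows up to 3 counts per library, and 4 were tested, of which 0 passed the criterion in either direction. miR-30c-2-3p was at 21.7 to 24.2 CPM with vehicle and at 20.4, 33.4 and 21.2 CPM with tilianin. Tilianin-treated replicate 2 was again the highest, and the log2 fold change was 0.14 (standard error 0.247). miR-30b-3p had at most 4 counts. miR-325-3p had 14, 24 and 8 counts in the 2VO libraries and 8, 5 and 2 in the treated libraries. After scaling, its treated libraries (0.244 to 0.869 CPM) all lay below its 2VO libraries (1.04 to 1.85 CPM), as for 4.19% of all tested miRNAs. Its log2 fold change of -1.23 (standard error 0.543) did not pass, the p being 0.0577 unadjusted and 0.652 adjusted in edgeR's quasi-likelihood test, and the exact permutation p 0.1. miR-325-5p had 1 to 8 counts, with groups that overlapped.

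Summed over the 6 members from 5p arms (miR-30b-5p and miR-30d-5p belong by family name, as their sequences were not read), the family held 4.50%, 4.48% and 5.02% of all counts in the 2VO libraries and 4.28%, 5.17% and 4.88% in the treated libraries. The counting interval of a single library is narrow, for example 4.49% to 4.52% for 2VO replicate 1 (Wilson, 95%). In CPM the sum was 45615 ± 2693 in the 2VO group and 49043 ± 7044 in the treated group (SD, n = 3 each), and the groups overlapped. The log2 difference of these means was 0.10, and -0.000896 without tilianin-treated replicate 2. miR-30a-5p and miR-30c-5p made up 99.8% to 99.9% of this sum in each library. The other 4 strands together had 442 to 774 counts.

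Within the sum, miR-30a-5p took 70.2%, 70.2% and 68.6% in the 2VO libraries and 67.2%, 77.5% and 72.2% in the treated libraries. The 2VO libraries were close together, and the treated libraries lay on both sides of them. There were 2.37, 2.37 and 2.20 counts of miR-30a-5p for each count of miR-30c-5p in the 2VO libraries, and 2.05, 3.46 and 2.60 in the treated libraries. This ratio does not depend on the scaling of libraries. Its SD was 0.0986 in the 2VO group and 0.706 in the treated group (n = 3 each), and tilianin-treated replicate 2 was the highest.

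**Figure D3:**
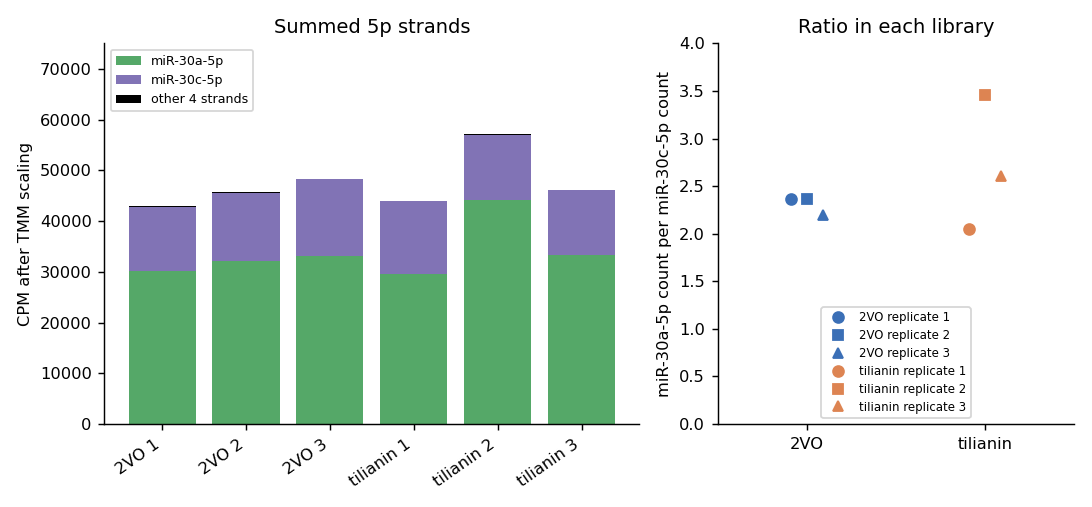
Left, summed CPM of the 6 members from 5p arms in each library, with miR-30a-5p in green, miR-30c-5p in purple and the other 4 strands in black. Right, counts of miR-30a-5p per count of miR-30c-5p in each library; the 2VO libraries lie between 2.20 and 2.37, and the treated libraries between 2.05 and 3.46.

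The arms of each hairpin were compared within libraries. In the miR-30a hairpin the 3p strand made up 0.176%, 0.185% and 0.169% of the counts of both arms in the 2VO libraries. In the treated libraries it made up 0.206%, 0.203% and 0.196%. All treated libraries were above all 2VO libraries, although the Wilson intervals of single libraries touch, such as 0.172% to 0.199% in 2VO replicate 2 and 0.180% to 0.213% in treated replicate 3. The log2 ratio of 5p to 3p was 9.14 ± 0.06 in the 2VO group and 8.95 ± 0.04 in the treated group (SD, n = 3 each). Counting error alone gives an SD of 0.0520 to 0.0693 for this ratio in a single library. The difference was -0.19, with a two-sided exact permutation p of 0.1, the smallest possible, and -0.18 without tilianin-treated replicate 2. Among the 151 pairs of tested arms whose names match, the groups did not overlap in this ratio for 7.95%, and for 3.31% with the treated libraries lower. Arms with numbered names, such as miR-30c-2-3p, are not in these pairs. The miR-30a hairpin was 1 of 5 whose arm ratio was compared here. Those of miR-30c-2 (exact permutation p of 0.8), miR-30b (0.7), miR-384 and miR-30e overlapped between the groups. For miR-30c-2 the 5p count is that of miR-30c-5p, which also comes from Mir30c1, so it is not the ratio of that hairpin alone.

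In the miR-384 hairpin the arms were reversed in level. The 3p strand made up 79.4%, 93.2% and 90.6% of the counts in the 2VO libraries and 74.2%, 92.6% and 86.2% in the treated libraries. The 3p strand therefore exceeded the 5p strand in all 6 libraries, on 27 to 59 counts for both arms. The log2 ratio of 5p to 3p was -2.86 ± 0.90 and -2.44 ± 0.94 (SD, n = 3 each), with an exact permutation p of 0.6, and treated replicate 1 decides the sign of the difference (-0.0684 without it). The miR-30e arms had 8 to 16 counts together, and with at most 3 counts for the 3p strand their ratio is not interpretable, the exact permutation p being 0.4.

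**Figure D4:**
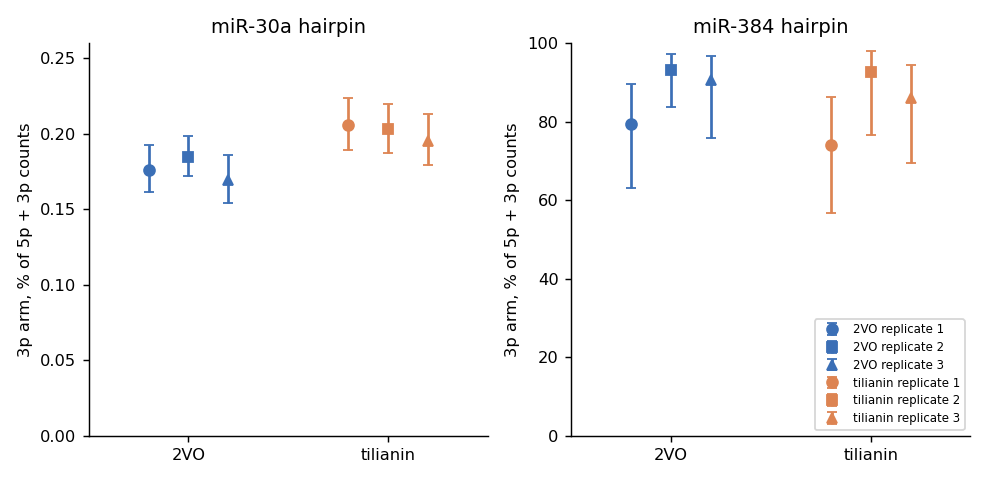
Share of the 3p arm in the counts of both arms (percent, note the different axes) for the miR-30a and miR-384 hairpins in each library, with 95% Wilson intervals that cover counting error only. For miR-30a the treated libraries (0.196% to 0.206%) lie above the 2VO libraries (0.169% to 0.185%); for miR-384 the groups overlap.

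The level of miR-30e-5p was also set beside that of its near copy. The 2 sequences below differ at a single base, in capitals, written C13U with positions counted from the 5′ end of miR-30a-5p.
miR-30a-5p: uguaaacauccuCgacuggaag
miR-30e-5p: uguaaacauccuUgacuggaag

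Over the 6 libraries miR-30a-5p had a mean of 296543 counts and miR-30e-5p of 10.5 counts, which is 0.00354% of the former. In a comparison chosen after these values were seen, pairs were sought among the listed miRNAs with a reference sequence. There, 16 pairs of equal length differed at 1 base and had at least 1000 mean counts in the higher one. Some miRNAs are in several pairs. The lower member held a median of 16.7% of the count of the higher, from 0.00217% (miR-181d-5p beside miR-181b-5p) to 69.7% (let-7a-5p beside let-7c-5p). The miR-30 pair was the second lowest, and 4 of the 16 pairs were under 1%. The authors' counting could divide reads between such near copies, so the separate levels of miR-30a-5p and miR-30e-5p are uncertain. How reads were divided was not tested. Near copies of miR-30b-5p, miR-30d-5p and miR-30e-3p could not be sought, as they had no reference sequence. Their levels and the ratios built on them may be uncertain in the same way.

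**Figure D5:**
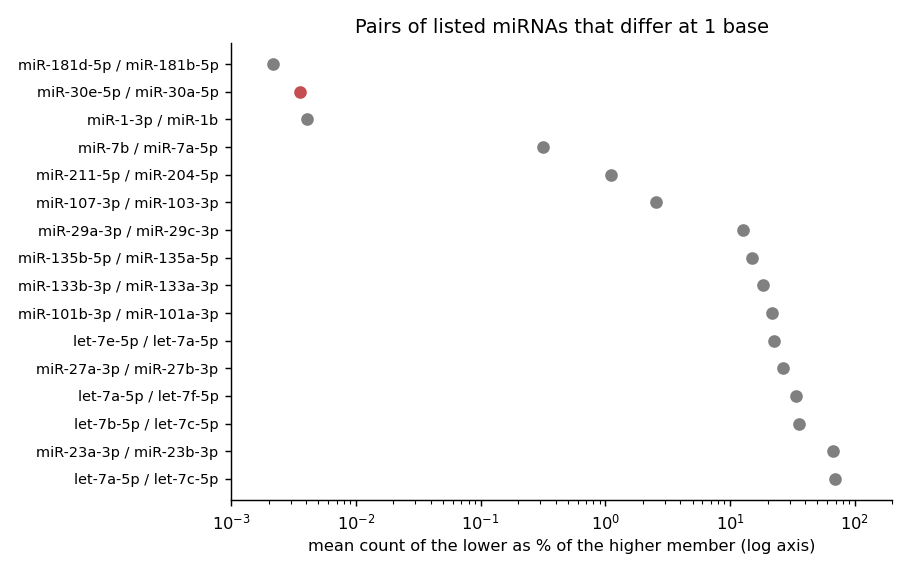
Mean count of the lower member as a percentage of the higher member (log axis) for the 16 pairs that differ at 1 base. Only listed miRNAs with a reference sequence were compared. The pair of miR-30e-5p beside miR-30a-5p is in red at 0.00354%. The pairs range from 0.00217% to 69.7%.

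Of the 263 other miRNAs with at least 10 CPM on average, the 5 whose log2 CPM followed miR-30a-5p most closely over the 6 libraries were miR-362-5p (Pearson r of 0.97), miR-34a-5p (0.96), miR-362-3p (0.96), miR-380-5p (0.94) and miR-339-5p (0.93). All 5 were highest in tilianin-treated replicate 2, as miR-30a-5p was. miR-34a-5p, a p53-responsive miRNA, had 624 CPM there and 69.0 to 119 CPM elsewhere. Over the 5 libraries without it, r was 0.71, 0.59, 0.48, 0.93 and 0.90 in the same order, so the first 3 rest largely on that library. For miR-384-5p the closest were miR-346 (0.66), miR-185-5p (0.66), miR-493-3p (0.64), miR-370-3p (0.63) and miR-708-5p (0.63), on its 2 to 8 counts. These are descriptions over 6 libraries that share the scaling, and the miRNAs were picked from many.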

How the data were processed

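Small RNA of rat brain was sequenced after TruSeq small RNA library preparation. The authors deposited one table of whole-number counts of reads per mature miRNA, without normalization, for 3 libraries of each group. Per the labels, FastQC 0.11.2, Trimmomatic 0.36, cutadapt 1.14 and DESeq2 1.12.4 were among the submitters' tools, with no role given. Which aligner, reference, build and counting program were used is not given in the sources used here. Libraries were matched to groups by the codes in their labels.

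MiRNAs with at least 10 counts over the 6 libraries were kept. Libraries were scaled with TMM (edgeR 4.0.16, limma 3.58.1, R 4.3.3), and groups were compared across all kept miRNAs with edgeR's quasi-likelihood test, with the group as the single term and Benjamini-Hochberg adjustment over all miRNAs tested. The screen of the study was kept, an absolute log2 fold change above 1 at an unadjusted p-value below 0.05. Approximate standard errors were derived as the fold change over the root of F, and 95% intervals use them. No fold change is given for a miRNA with no more than 3 counts in every library. For single values and arm ratios (0.5 counts added to each arm), exact permutation tests, two-sided, were run in SciPy 1.17.1. Confidence intervals of counts and shares cover counting error only, since no molecular identifiers are mentioned. The code was tested on simulated counts.

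The named miRNAs are the 9 members, their other arms and neighbours, the miRNAs most like miR-30a-5p and miR-384-5p over the libraries, and markers. The members and lists were chosen with earlier results of these data known. Alternatives were DESeq2 1.42.0 size factors or library totals, DESeq2's Wald test, limma-voom, filterByExpr, no filter, a block for the replicate number, and single libraries left out. Sequences and positions are those of RefSeq in GRCr8. The deposited counts carry no coordinates.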

Additional observations from a re-analysis of the deposited data

How the results depend on the processing

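Over all miRNAs, the upregulated calls (21) numbered 6 with limma-voom and 9 under the replicate block. With single libraries left out they numbered 7 (2VO replicate 2 removed) to 29 (treated replicate 1 removed), and 8 without 2VO replicate 1, 9 without 2VO replicate 3 and 9 without tilianin-treated replicate 2. The downregulated calls (5) numbered 8 when scaled by library totals, 3 by DESeq2's Wald test, 3 by limma-voom and 2 after filterByExpr. With single libraries left out they numbered 2 (2VO replicate 2 removed) to 5. An adjusted p under 0.05 was reached by 3 miRNAs with DESeq2's Wald test, and by 0 to 4 (without tilianin-treated replicate 2) with single libraries left out, against 0. The cause was not tested. For the 8 members with a fold change, 55 values under other settings kept their direction and their lack of a call, as did 44 of 48 with a library left out. The other 4 changed sign. With single libraries left out, the log2 fold change ranged from -0.000571 to 0.31 for miR-30a-5p and from -0.11 to 0.0129 for miR-30c-5p. In the same fits it ranged from -0.22 to 0.71 for miR-384-5p, 0.11 to 0.44 for miR-30b-5p and -0.24 to -0.0835 for miR-30d-5p. The ranges there were -0.49 to -0.0375 for miR-30e-5p, 0.18 to 0.49 for miR-30a-3p and -0.39 to -0.0542 for miR-384-3p. Scaling by library totals gave -0.12 for miR-30c-5p. The summed CPM of the 5p strands ranged from -0.000896 (tilianin-treated replicate 2 removed) to 0.20 (treated replicate 1 removed) as a log2 difference, and the miR-384 arm difference from -0.0684 to 0.91. miR-384-5p was removed by filterByExpr. Fits for miR-30e-3p were left out, since it had no more than 3 counts in any library. The replicate numbers were not used as pairs in the main fit. The correlations of deviations were -0.0891, 0.0134 and 0.192 for number 1, 2 and 3, and 2 of 6 libraries correlated best with their own number. With 3 libraries per group, these values cannot exclude a pairing. The block moved no call of a member.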

Other observations

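Ratios of counts between members, which do not depend on library scaling, were computed for all 36 pairs after the levels had been seen. The groups did not overlap for 6 of them (16.7%), where 13.4% of the 102831 pairs among all tested miRNAs did not. There were 0.465, 0.516 and 0.492 counts of miR-30b-5p for each count of miR-30d-5p with vehicle, in the order of the replicates, and 0.521, 0.933 and 0.617 with tilianin. The log2 ratio was 0.45 higher in the treated group, and 0.21 higher without tilianin-treated replicate 2. The other pairs were miR-30a-5p with miR-30a-3p, miR-30b-5p with miR-30c-5p, and miR-384-3p with each of miR-30a-5p, miR-30b-5p and miR-30a-3p. The ratio of miR-30a-3p to miR-384-3p had the highest difference of these 6, 0.55 on the log2 scale, and 0.54 without tilianin-treated replicate 2.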
